A study of Canis lupus familiaris with 6 samples.

Results

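The genes described here encode the proteins of the cytosolic ribosome, taken as the symbols that start with RPL or RPS followed by a number, with at most a closing A, X or L, together with RPLP0, RPLP1, RPLP2 and RPSA. Of 41401 gene symbols in the deposited tables, 76 matched, and 74 of them reached the required mean of 1 FPKM over the 6 libraries (fragment counts scaled by transcript length and by the fragments mapped in the library). Those 74 comprise 42 genes of the large (60S) subunit and 32 of the small (40S) subunit, and they are part of 12125 genes that passed the same filter. RPL10L, listed at 0 in every library, and RPL3L, at 0.348 to 0.651 FPKM, fell outside the filter, and the lowest gene inside it was RPL21, at 7.74 to 15.8 FPKM.

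The study sequenced polyadenylated RNA of MDCK cells, an epithelial line derived from dog kidney, in which PRL phosphatases were depleted. PRL1 and PRL2 are small phosphatases that bind CNNM magnesium transporters, and PTP4A1 encodes PRL1. Wild-type cells and a pair of mutant clones, each labelled PRL2-/-; PRL1+/-, were transfected with control siRNA or with siRNA against PRL1, and were harvested for RNA 18 h after transfection was repeated. Each of the 3 lines gave 1 library per siRNA, so the mutant genotype is represented by 2 clones (called clone 1 and clone 2 as in the labels) and wild type by 1 library per siRNA. The mutant clones keep an intact PRL1 allele, and the siRNA lowered its transcript without removing it: PTP4A1 was at 63.5, 61.7 and 69.9 FPKM in the controls of wild type, clone 1 and clone 2, and at 33.1, 37.8 and 37.8 after knockdown, a fall of 0.83 ± 0.05 (log2, SE, limma adjusted p = 0.00127).

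A cytosolic ribosome joins a small subunit, which decodes mRNA, to a large subunit, which forms peptide bonds, and each of its proteins is usually present in a single copy per particle. Their genes are among the most highly transcribed of a growing cell. Most of their mRNAs start with a terminal oligopyrimidine (TOP) tract, through which mTORC1, a nutrient-sensing kinase complex, and the RNA-binding protein LARP1 control their translation and stability. Ribosomal protein genes also have many near-identical processed copies in mammalian genomes. The sources used here do not state how fragments matching several copies were assigned, so the level of any 1 gene is uncertain to that degree.

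Library-wide values bear on what follows in a few places. Total FPKM ran from 437298 to 474719, lowest in both wild-type libraries, and the absolute depth is unknown. Read from low values, depth relative to the wild-type control was between 0.766 and 0.915 in the other 5 libraries. All 8 kidney epithelial markers passed the filter, with a summed level of 1191 to 1842 FPKM, whereas the 6 fibroblast markers summed to at most 0.474 FPKM with LUM at 0, and the leukocyte markers to at most 8.95 FPKM with PTPRC and CD3E at 0. Endothelial markers summed to between 6.96 and 25.04 FPKM, nearly all of it FLT1.

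Ribosomal protein genes held a large and fairly even part of each transcriptome. Their summed FPKM was 13.9% of the total in the wild-type control and 13.4% after knockdown, 15.6% and 14.7% in clone 1, and 14.6% and 13.6% in clone 2. The share was lower after PRL1 siRNA in each of the 3 lines, and under either siRNA it was highest in clone 1. Between 54 and 59 of the 100 most abundant genes of a library were ribosomal protein genes, and their median level ran from 736 FPKM in the wild-type knockdown to 898 FPKM in the clone 1 control.

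**Figure D1:**
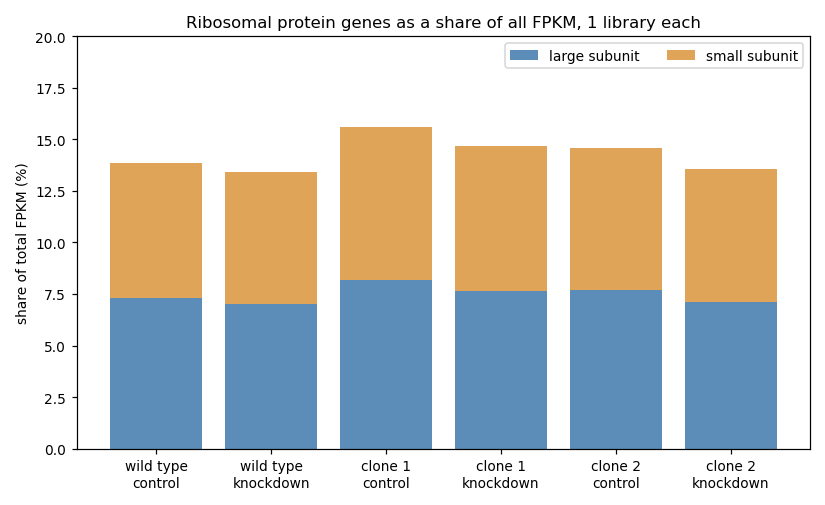
Summed FPKM of the ribosomal protein genes as a percentage of all FPKM in each of the 6 libraries (1 library per bar), with large-subunit genes below and small-subunit genes above. The whole bar runs from 13.4% in the wild-type knockdown to 15.6% in the clone 1 control, and in each line the knockdown bar is shorter than its control bar.

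Between the subunits the balance shifted little. Summed small-subunit FPKM was 0.898 of the large-subunit sum in the wild-type control and 0.919 after knockdown, 0.906 and 0.924 in clone 1, and 0.893 and 0.906 in clone 2. In all 3 lines the ratio was therefore higher after knockdown, by a small margin. No test is given for sums over the group.

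The order of the genes by level was nearly fixed. Spearman's rho between any pair of libraries, across the 74 genes, lay between 0.961 and 0.987, as a description of genes that share length and mapping properties between libraries. RPLP1, an acidic protein of the stalk that recruits translation factors, was the most abundant, with a mean of 2080.4 FPKM, and RPS2 at 1742, RPS20 at 1686 and RPL32 at 1525 were also among the 5 highest. At the other end stood RPL15 at 252 FPKM, RPS27L at 144 (129 to 156 over the libraries) and RPL21 at 10.3. RPS27L is a close relative of RPS27. RPL21 is a core protein of the large subunit whose listed level was far below that of its partners in the particle.

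**Figure D2:**
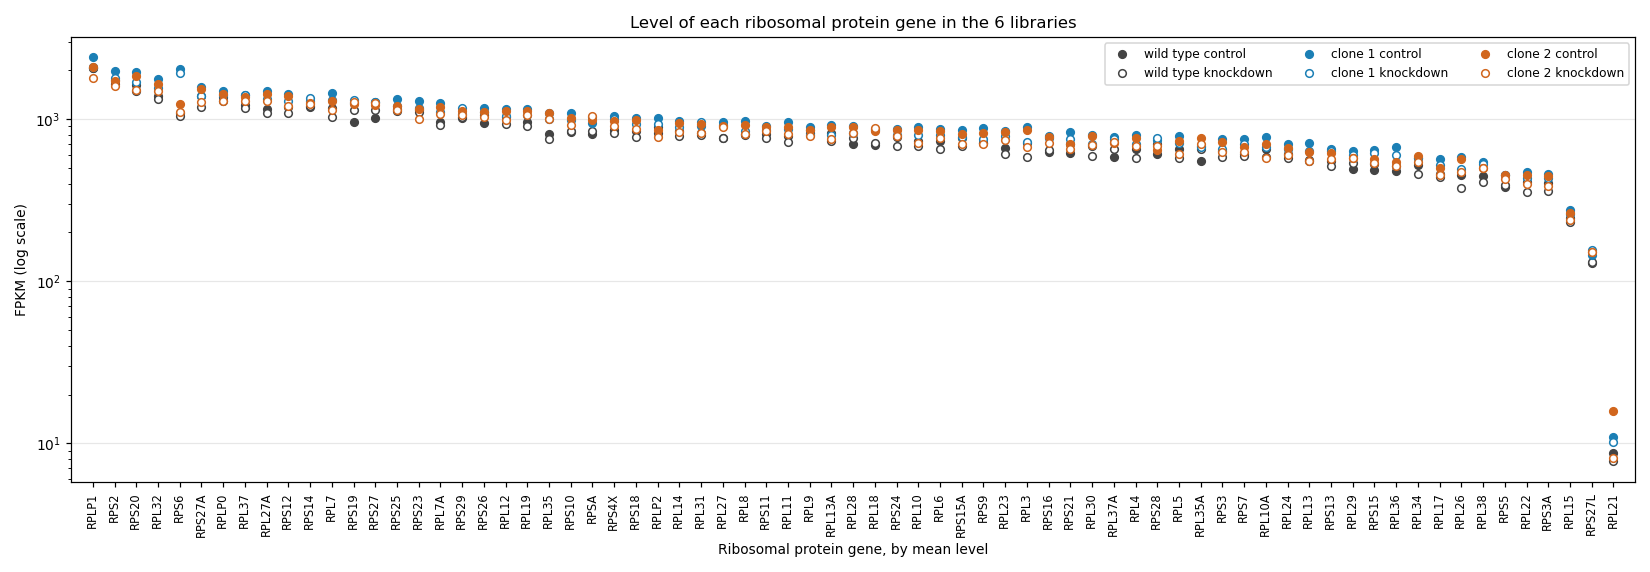
FPKM (log axis) of 71 of the 74 ribosomal protein genes in each library, ordered by mean level; filled circles are control siRNA, open circles PRL1 siRNA, and colours mark the 3 lines. All but 3 genes lie on a gentle slope, RPL15, RPS27L and RPL21 lie below, and the 2 blue points of RPS6 (clone 1) stand above its other 4.

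The question put to the knockdown was whether these genes changed together when PRL1 siRNA was added to cells of the same line. Across the 3 lines, 31 of the 74 genes fell, 0 rose and 43 did not pass (limma on log2(FPKM + 1) with the line as a term, Benjamini-Hochberg adjusted p under 0.05 over all 12125 genes). Of all genes tested, 21.7% fell and 17.6% rose. Among the 252 other genes whose mean reached 200 FPKM, a floor that lies below most of the ribosomal genes, 27.0% fell. The falls were small: the 31 genes were 7.0% to 19.4% lower, and the largest fall that passed was 0.31 on the log2 scale. The median difference of all 74 genes was -0.11 (log2), against -0.01 over all genes and 0.004 over the 252 abundant genes.

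That count rests on few libraries. Leaving out clone 1 left 2 falling genes (RPL3 and RPL26, with 7.92% of all genes falling), leaving out clone 2 left 7 (10.9% of all genes), and leaving out wild type gave 31. Quantile normalization, which forces the same distribution of values on each library, gave 15 falls and 3 rises, and its 20.3% of ribosomal genes falling was close to the 20% of all genes. Ribosomal genes fill most of the highest ranks in each library, so this normalization can remove part of a shift that they share. That limit applies to every quantile-normalized value given here. Without the filter on low values 0 of the 74 passed by limma, and 2.61% of all genes fell. At an unadjusted p under 0.05 in that fit, 24 of the 74 were lower, against 12.9% of all genes.

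As FPKM is a share of the library, less of these mRNAs per cell and more of other mRNAs cannot be told apart. Within lines, where 1 library stands against 1 and no test is possible, the median ribosomal gene differed by -0.07 in wild type, -0.12 in clone 1 and -0.14 in clone 2 (log2, knockdown minus control). In the same order, 52, 63 and 66 of the 74 genes were lower after knockdown, against 6147, 6339 and 6494 of all 12125 genes. The medians of all genes were -0.004, -0.01 and -0.02. A total of 48 ribosomal genes were lower in all 3 lines, 64.9% of them, against 35.8% of all genes.

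**Figure D3:**
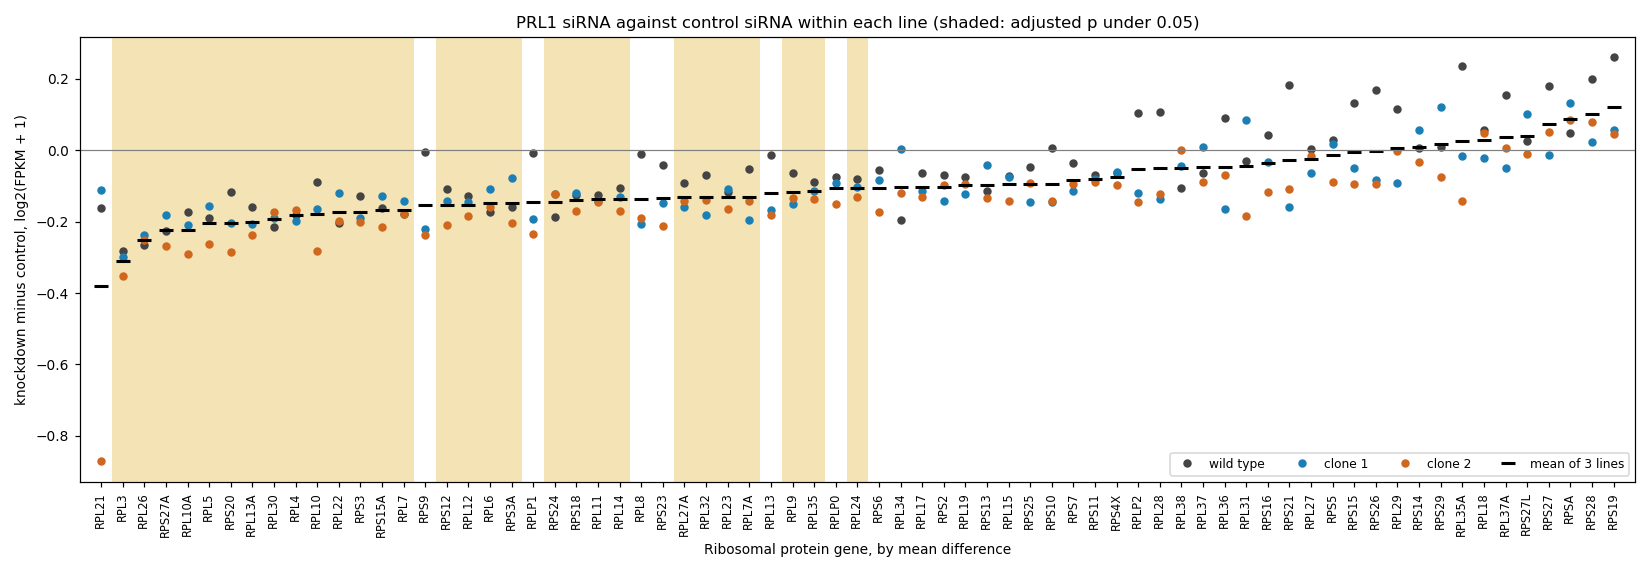
Difference in log2(FPKM + 1) between PRL1 and control siRNA within wild type, clone 1 and clone 2 (points) and its mean over the 3 lines (bars) for 71 of the 74 ribosomal protein genes, ordered by the mean; shading marks the 29 of them that fell. The points of most shaded genes lie close together below 0, clone 2 of RPL21 lies at -0.87, and at the right the wild-type points lie above both clones for several genes.

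Large-subunit genes made up 21 of the 31 falls, which is 50% of the 42 genes of that subunit, against 21.7% of all genes. RPL3, which lies beside the peptidyl transferase centre, was at 706 FPKM in the wild-type control and 580.4 after knockdown, at 891 and 724 in clone 1, and at 857 and 671 in clone 2. Each line was lower after knockdown by a similar margin, although the wild-type control was below the clone 1 knockdown library. The fall was 0.31 ± 0.03 on the log2 scale (SE, n = 3 lines, limma adjusted p = 0.00248). RPL26, a protein at the end of the peptide exit tunnel, was at 449, 582 and 564 FPKM in the controls of wild type, clone 1 and clone 2, and at 373, 494 and 474 after knockdown. Its fall of 0.25 ± 0.03 was as even (adjusted p = 0.00368, limma), and these were the only ribosomal genes that still passed without clone 1.

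Both proteins of the 5S particle, which carries 5S rRNA into the large subunit and, when free, binds MDM2, fell. RPL5 was at 655, 788 and 727 FPKM in the controls of wild type, clone 1 and clone 2, and at 574, 707 and 606 after knockdown. RPL11 was at 784, 962 and 896 FPKM in the controls and at 719, 871 and 811 after knockdown. The falls were 0.20 ± 0.04 for RPL5 and 0.14 ± 0.03 for RPL11 (log2, SE; limma adjusted p = 0.00986 and 0.0197), with all 3 lines lower in each case. Without clone 1, or without clone 2, neither passed.

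Of the 6 listed proteins that line the peptide exit tunnel, 3 fell (RPL4, RPL26 and RPL35) and 0 rose, where 41.9% of the 74 ribosomal genes and 21.7% of all genes fell. RPL4 stood at 649, 802 and 768 FPKM in the controls and at 572, 699 and 684 after knockdown, a fall of 0.18 ± 0.03 (log2, SE). RPL35 fell by 0.11 ± 0.03, and its call held in 3 of 11 alternative settings, against 8 of 11 for RPL4. RPL17, RPL19 and RPL31 did not pass, with differences of -0.10, -0.10 and -0.04.

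RPL13A, which is released from the ribosome in the interferon response, fell by 0.20 ± 0.03 (log2, SE), from 814, 922 and 891 FPKM to 729, 798 and 755. RPL22, a protein dispensable for most translation, fell by 0.17 ± 0.03, from 407, 469.6 and 454 FPKM to 353, 432 and 396. RPL10, which is added to the large subunit in the cytoplasm, fell by 0.18 ± 0.05, and here the lines were less even, with differences of -0.09 in wild type, -0.16 in clone 1 and -0.28 in clone 2. RPL10A, a surface protein of the large subunit, fell by 0.22 ± 0.04. The adjusted p-values (limma) of these 4 genes ran from 0.00812 for RPL10A to 0.028 for RPL10.

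None of the 3 proteins of the stalk passed. RPLP0, its base, was at 1362, 1489 and 1426 FPKM in the controls of wild type, clone 1 and clone 2 and at 1293, 1396 and 1284 after knockdown (limma adjusted p = 0.0535). RPLP1 was nearly level in wild type, at 2061 and 2052 FPKM, and lower after knockdown in clone 1, from 2396 to 2095, and in clone 2, from 2098 to 1781. RPLP2, which pairs with RPLP1 on the stalk, was higher after knockdown in wild type, from 825 to 887 FPKM, and lower in both clones, from 1017 to 937 and from 851 to 769. When the clones were tested alone, paired by clone, RPLP1 passed with a difference of -0.21 (adjusted p = 0.0245, limma), and RPLP0 and RPLP2 did not.

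RPL21 had the lowest mean difference of all, -0.38 ± 0.15 (log2, SE), and did not pass (limma adjusted p = 0.0978). It was at 8.78 and 7.74 FPKM in the wild-type pair, 11.0 and 10.1 in clone 1, and 15.8 and 8.18 in clone 2. The clone 2 control alone stood apart, and without clone 2 the mean of the other within-line differences, -0.16 and -0.11, was near the median of the group. At this level the gene rests on far fewer fragments than its partners.

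Of the 32 small-subunit genes, 10 fell (31.25%, against 21.7% of all genes), 0 rose and 22 did not pass. RPS27A, made as a fusion with ubiquitin, was at 1385, 1569 and 1534 FPKM in the controls and at 1184, 1385 and 1275 after knockdown, and fell by 0.22 ± 0.03 (adjusted p = 0.00638, limma). It was lower in all 3 lines, and its knockdown level in clone 1 matched its level in the wild-type control.

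Proteins that join the particles late, in the cytoplasm or shortly before export, included 4 that fell (RPS3, RPS12, RPS20 and RPL10) among 7, and 0 that rose. For comparison, 41.9% of the 74 ribosomal genes and 21.7% of all genes fell. RPS3, a protein of the mRNA entry site, was at 637, 748 and 718 FPKM in the controls of wild type, clone 1 and clone 2, and at 583, 656 and 625 after knockdown. RPS20 was at 1619.9, 1957 and 1837 FPKM in the controls of these lines and at 1493, 1699 and 1507 after knockdown. Both showed larger differences in the clones than in wild type, -0.20 and -0.29 against -0.12 for RPS20, but the test of that difference, the interaction described further on, did not pass for any ribosomal gene.

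RPS26, which binds mRNA upstream of the start codon, had a mean difference near 0 and opposite directions: it was at 938 FPKM in the wild-type control and 1055 after knockdown, at 1162 and 1097 in clone 1, and at 1100.0 and 1031 in clone 2. RPS14, which lies at the platform of the small subunit, was at 1193, 1291 and 1258 FPKM in the controls and at 1199, 1343 and 1229 after knockdown. RPS4X, the X-linked copy of its family, differed by -0.07 ± 0.03 (log2, SE) and RPS6, the substrate of S6 kinase, by -0.10 ± 0.04. These 4 genes did not pass (limma adjusted p = 0.978, 0.83, 0.114 and 0.0738).

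At the upper end, 4 genes were higher after knockdown in all 3 lines, among them RPS19, RPS28 and RPSA. That is 5.41% of the group, against 31.6% of all genes and 38.9% of the 252 other abundant genes. None of the 4 passed in the fit above, and the limma adjusted p of the 3 named genes lay between 0.0881 and 0.117. RPS19, the gene most often mutated in Diamond-Blackfan anaemia, was at 952 FPKM in the wild-type control and 1140.2 after knockdown, at 1259 and 1310.2 in clone 1, and at 1241 and 1280.3 in clone 2. Its wild-type difference was the largest, 0.26 (log2), against 0.06 and 0.05 in the clones. RPSA, which also serves as a laminin-binding protein, was at 811, 938 and 981 FPKM in the controls and 839, 1028 and 1041 after knockdown. RPS27 was nearly as high in its mean difference, at 1007, 1277 and 1214 FPKM in the controls and 1142, 1267 and 1257 after knockdown.

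These genes lie near the threshold, and scaling moved some of them past it. RPS19, RPS28 and RPSA passed as higher when every library was scaled to the same FPKM total, RPSA alone under median-ratio scaling, and RPS19 and RPS28 under quantile normalization. Those scalings had 19.7%, 19.9% and 18.8% of all genes rising. Of the 9 genes linked to inherited anaemia, 4 fell, among them RPL5, RPL11 and RPS24, 0 rose, and the remaining 5 (RPS7, RPS10, RPS19, RPS26 and RPL35A) did not pass. In the same fit, 41.9% of the 74 ribosomal genes and 21.7% of all genes fell.

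With the wild-type pair set aside and the libraries paired by clone, 31 genes fell in the clones and 0 rose (limma, 1 residual degree of freedom). It is the same fit as leaving out wild type above, and it reuses the clone libraries of the first count. Of the 31 genes, 25 were among those that fell across the lines. Of all genes, 19.0% fell and 14.3% rose in this fit. The same contrast without pairing called 0 genes of any kind, with a smallest adjusted p of 0.142 among ribosomal genes, and 10 of the 74 were lower at an unadjusted p under 0.05, against 12.2% of all genes. Libraries of the same clone deviated together, so the unpaired fit counts the difference between clones as error.

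Changes of the 74 genes were alike between lines to a moderate degree. Across genes, the knockdown differences of wild type and clone 1 had a Pearson correlation of 0.518, those of wild type and clone 2 of 0.573, and those of both clones of 0.541. All 12125 genes gave 0.535, 0.573 and 0.550. Spearman's rho was 0.489, 0.677 and 0.700 over the ribosomal genes, in the same order, and 0.725, 0.699 and 0.790 over all genes. These are descriptions over genes, which are not independent, and no control library is shared within these pairs.

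In 11 ribosomal genes the wild-type difference was above 0 and both clone differences were below 0: RPL27, RPL28, RPL29, RPL35A, RPL36, RPLP2, RPS10, RPS15, RPS16, RPS21 and RPS26. That is 14.9% of the group against 8.09% of all genes, and the opposite arrangement occurred in 0 of the 74 and in 6.19% of all genes. RPS21 was at 618, 836 and 699.8 FPKM in the controls of wild type, clone 1 and clone 2, and at 702, 749 and 649 after knockdown. RPL35A was at 554, 682 and 768 FPKM in the controls and at 652, 674 and 696 after knockdown. For both, wild-type cells started from the lowest control level, as they did for 72 of the 74 genes and for 43.6% of all genes. The wild-type difference, this order and the interaction below all use the same wild-type control library, so they are not independent.

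Whether the knockdown difference itself differed between clones and wild type was tested as an interaction in the fit of 4 groups, without pairing by line. It passed for 0 of the 74 genes and for 0 of all genes (limma), and at an unadjusted p under 0.05 it held 0 ribosomal genes and 1.12% of all genes. The median interaction of the group was -0.06 (log2), and turned to 0.0056 under quantile normalization. It was -0.028 after scaling to the same FPKM total. When 1 clone library was left out it was -0.0176 (clone 1 control), -0.0864 (clone 2 control), -0.105 (clone 1 knockdown) or -0.0156 (clone 2 knockdown). A fit with each line as a replicate block, which leaves 1 residual degree of freedom, gave the same differences with other errors. There 0 of the 74 genes and 1 of all genes passed (limma), and the smallest adjusted p among ribosomal genes was 0.454, for RPS21. At an unadjusted p under 0.05, 13 of the 74 had a lower difference in the clones, against 6.25% of all genes, and 0 had a higher one. In the fit without pairing, the lowest values belonged to RPL21 at -0.33 ± 0.36 (SE), RPS21 at -0.32 ± 0.22, RPL35A at -0.32 ± 0.14, RPS26 at -0.26 ± 0.12 and RPL28 at -0.24 ± 0.10. At the other end were RPL34 at 0.14, RPL38 at 0.08, RPS24 at 0.07, RPSA at 0.06 and RPL22 at 0.04. The wild-type libraries enter this test without replicates and were assumed to vary like the clones.

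The second comparison asked how the PRL2-/-; PRL1+/- clones differed from wild type. Under control siRNA the mean of the clones was above wild type for all 74 ribosomal genes, with a median of 0.23 (log2) against 0.03 over all genes. Of all 12125 genes, 6932 were above wild type. No gene passed, ribosomal or other (limma, smallest adjusted p among ribosomal genes 0.25), and 28 of the 74 were higher at an unadjusted p under 0.05, against 9.39% of all genes. The wild-type control is 1 library, so the spread comes from the clones and wild type was assumed to vary like them. That count of 28 was 6 after scaling to the same FPKM total, 8 under quantile normalization, 5 without the filter on low values, and 3 or 4 when the clone 1 or clone 2 control was left out, against 4.09%, 6.61%, 5.59%, 5.11% and 3.75% of all genes. Scaling each library to the same FPKM total lowered the median of the group to 0.12 and that of all genes to -0.07. It left 68 of the 74 above wild type, while more of all genes lay below wild type than above. Quantile normalization lowered the group's median to 0.082 and left 60 of the 74 above wild type, against 49.4% of all genes.

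Library by library the pattern was as broad. Clone 1 was above wild type for 74 of the 74 genes and clone 2 for 72 under control siRNA, with medians of 0.28 and 0.18 (log2) against 0.04 and 0.02 over all genes. Of all 12125 genes, clone 1 was above wild type for 7236 and clone 2 for 6543. These comparisons share the wild-type control library. In 72 genes both clone controls were above the wild-type control, where 43.6% of all genes showed that order, and the exceptions were RPL9 and RPS2, with clone 2 just below wild type. In 40 genes all 4 clone libraries were above both wild-type libraries, 54.1% of the group against 17.5% of all genes and 26.2% of the 252 other abundant genes. That count was 18 after scaling to the same FPKM total, with 8.63% of all genes, and 17 after quantile normalization, with 13.6% of all genes.

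**Figure D4:**
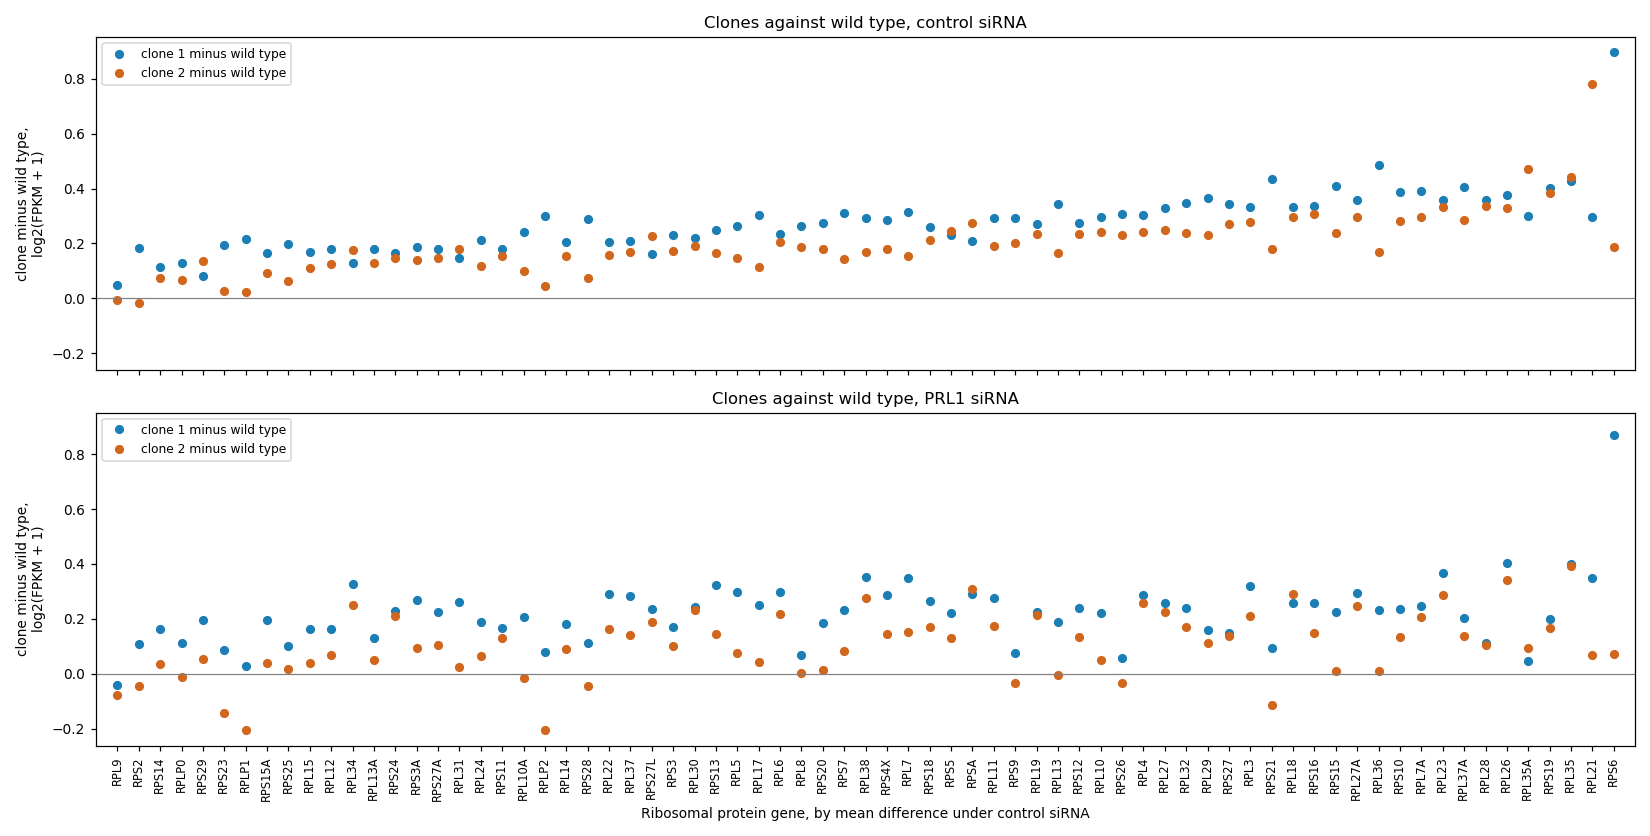
Difference in log2(FPKM + 1) of clone 1 and of clone 2 from wild type for 71 of the 74 ribosomal protein genes, under control siRNA (upper panel) and PRL1 siRNA (lower panel), 1 library against 1 in each point. Under control siRNA all points but 2 lie above 0, under PRL1 siRNA 1 point of clone 1 and 12 of clone 2 lie below 0, and clone 1 of RPS6 stands near 0.9 in both panels.

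The genes with the largest mean difference included the least even. RPS6 was at 1092 and 1050.0 FPKM in the wild-type control and knockdown libraries, at 2031 and 1917 in clone 1, and at 1245 and 1104 in clone 2. Its mean difference of 0.54 ± 0.47 (log2, SE) came from clone 1, which was 0.90 above wild type under control siRNA and 0.87 under PRL1 siRNA, while clone 2 was 0.19 and 0.07 above. Clone 1 exceeded clone 2 by 0.71 and 0.80, and no other ribosomal gene differed between the clones by 0.5 or more under either siRNA. RPL21, at 0.54 ± 0.25, rested mainly on a single library, the clone 2 control. Its clone 2 difference from wild type was 0.78 under control siRNA and 0.07 under PRL1 siRNA, and that of clone 1 was 0.30 and 0.35.

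RPL35, RPS19 and RPL35A were more even between the clones under control siRNA. RPL35, a protein near the tunnel exit, was at 804 and 757 FPKM in the wild-type libraries, 1082 and 999 in clone 1, and 1092 and 994 in clone 2, so that every clone library was above both wild-type libraries. Its difference under control siRNA was 0.43 ± 0.07 (log2, SE, limma adjusted p = 0.25). RPS19 differed by 0.39 ± 0.07 (adjusted p = 0.256, limma) and RPL35A by 0.39 ± 0.10. Under PRL1 siRNA the differences were 0.40 for RPL35, 0.18 for RPS19 and 0.07 for RPL35A. The smallest differences under control siRNA were those of RPL9 at 0.02 ± 0.07, RPS2 at 0.08 ± 0.13, RPS14 at 0.10 ± 0.09, RPLP0 at 0.10 ± 0.09 and RPS29 at 0.11 ± 0.10. RPL9 and RPS2 were below wild type after scaling to the same FPKM total, at -0.09 and -0.03.

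Under PRL1 siRNA the median difference from wild type was smaller, but the interaction, which tests that change, passed for 0 genes. The median difference was 0.16 (log2) against 0.03 over all genes, and 69 of the 74 genes were above 0, against 6832 of all 12125. Again no gene passed (limma, smallest adjusted p among ribosomal genes 0.223). At an unadjusted p under 0.05, 17 of the 74 were higher, against 9.65% of all genes. That count was 4 after scaling to the same FPKM total, 9 under quantile normalization, 5 without the filter, and 2 or 4 when the clone 1 or clone 2 knockdown library was left out, against 5.29%, 7.73%, 5.85%, 5.41% and 5.17% of all genes. The median of the group was 0.0787 after scaling to the same FPKM total, with 60 of the 74 above wild type against 41.2% of all genes, and 0.0576 under quantile normalization, with 52 of the 74 above wild type against 50.9% of all genes. Clone 1 was above wild type for 73 genes with a median of 0.23, and clone 2 for 61 with a median of 0.11. Of all 12125 genes, clone 1 was above wild type for 7166 and clone 2 for 6381. After knockdown all 3 stalk genes were below wild type in clone 2, RPLP2 at 769 against 887 FPKM.

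Clone 1 was above clone 2 for 64 of the 74 genes under control siRNA and for 70 under PRL1 siRNA, with medians of 0.06 and 0.10 (log2). All genes gave medians of 0.02 and 0.03, with clone 1 above clone 2 for 6849 and 7048 of the 12125. With 1 library per clone and siRNA this was not tested.

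Among 7 ribosomal proteins whose names fall outside the symbol rule, 1 fell and 1 rose across the 3 lines (limma, as above). RACK1, a signalling scaffold on the head of the small subunit, fell by 0.22 ± 0.03 (log2, SE), from 800.1, 968 and 899 FPKM to 694, 836 and 762. RPL36AL, a close relative of RPL36A, rose by 0.17 ± 0.04, from 194, 196 and 215 FPKM to 227, 221 and 232. FAU, made as a ubiquitin-like fusion, differed by 0.01 and did not pass.

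Genes that act with the ribosome were counted by list in the same fit, where 21.7% of all genes fell and 17.6% rose. Of 29 initiation factor genes, 18 fell and 0 rose, with a median of -0.18 (log2). EIF1, which helps to select the start codon, fell by 0.70 ± 0.04 (SE), from 248, 238 and 219.8 FPKM to 158, 146 and 129.9. EIF3I, a subunit of the initiation complex eIF3, fell by 0.53 ± 0.04, and EIF2S2, a subunit of eIF2, by 0.40 ± 0.04. Of 7 elongation factor genes, 3 fell and 0 rose: EEF1A1, which delivers aminoacyl-tRNA, by 0.40 ± 0.05, EEF1B2, its exchange factor, by 0.21 ± 0.04, and EIF5A by 0.19 ± 0.03. EEF1A1 was listed at only 40.8 to 63.2 FPKM and also has many processed copies.

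**Figure D5:**
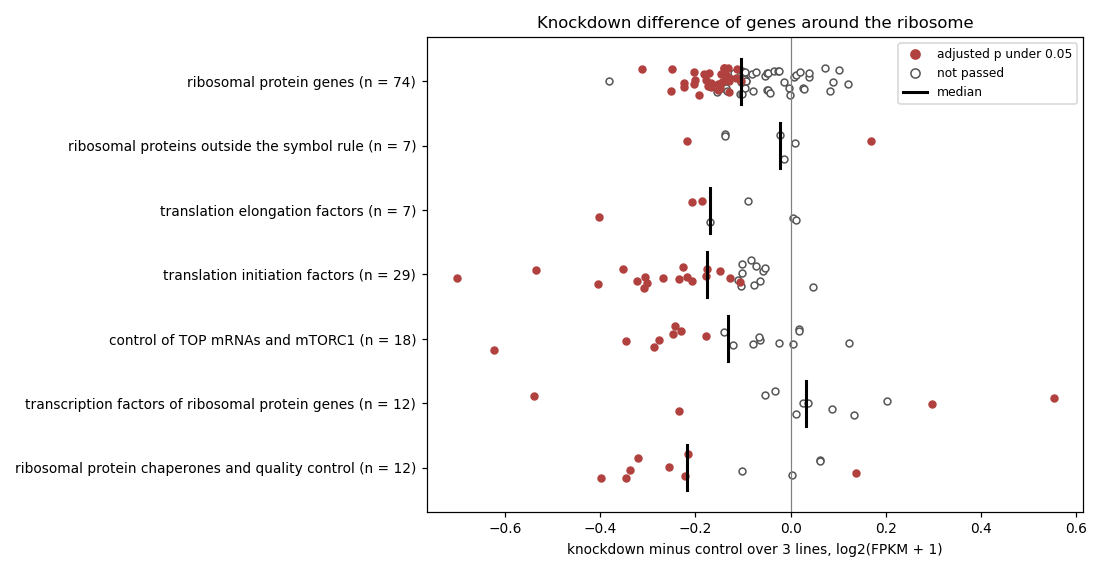
Mean difference in log2(FPKM + 1) between PRL1 and control siRNA over the 3 lines for ribosomal protein genes and for 6 lists of genes related to the ribosome (1 point per gene, filled where the adjusted p was under 0.05, bar at the median). Initiation factors lie almost wholly below 0 and reach -0.70, while the transcription factor list has filled points on both sides.

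In the list of 18 genes that control TOP mRNAs and mTORC1, 8 fell and 0 rose. EIF4EBP1, a repressor of cap-dependent initiation that mTORC1 inactivates, fell by 0.62 ± 0.07 (log2, SE), from 34.2, 31.0 and 30.2 FPKM to 22.1, 17.3 and 21.7. LARP1 fell by 0.35 ± 0.04 and EIF4EBP2, a relative of EIF4EBP1, by 0.29 ± 0.04. The genes that fell are thus known as repressors as well as activators of translation, the latter including MTOR, the kinase of the complex, which is named here after its value was seen.

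Of 12 transcription factor genes linked to ribosomal protein genes, 2 fell and 2 rose, 16.7% each way and close to the shares of all genes. MYC, an activator of ribosomal genes, fell by 0.54 ± 0.04 (log2, SE), from 32.9, 50.7 and 64.2 FPKM to 21.3, 35.1 and 45.2, and was higher in the clones than in wild type under either siRNA. GABPA fell by 0.24 ± 0.04. MXD1, which competes with MYC for the partner MAX, rose by 0.55 ± 0.07 from a level near 1 FPKM. MNT, another such competitor, rose by 0.30 ± 0.06, and is named here after its value was seen.

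Of 12 genes for ribosomal protein chaperones and ribosome quality control, 7 fell and 1 rose. LTV1, a small-subunit assembly factor, fell by 0.40 ± 0.04 (log2, SE), NAP1L1 by 0.32 ± 0.03 and PDCD2, a chaperone of RPS2, by 0.26 ± 0.04. BCCIP rose by 0.14 ± 0.04 and is likewise named after its value was seen.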

How the data were processed

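The authors deposited FPKM, with 1 row per symbol in each library. Tools named in the submitters' processing notes are HISAT2 (2.1.0), Cufflinks (2.2.1) and Cuffdiff. Genome build, annotation and strand setting were not given in the sources used here, and no coordinates or sequences are printed. All 76 symbols matched RefSeq names of assembly UU_Cfam_GSD_1.0. Groups and clone numbers came from the labels, which do not state separate cultures; the spread that p-values measure is that between these lines and samples and may be technical.

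Values were tested as log2(FPKM + 1), which understates changes of low genes, with limma 3.58.1 (R 4.3.3) for the 12125 genes whose mean reached 1 FPKM, with an intensity trend and Benjamini-Hochberg adjustment at 0.05 over all genes. The fit across lines had 2 residual degrees of freedom (prior 3.58), the 4-group fit 2 (prior 1.95), the fit paired by clone 1 (prior 3.19) and the interaction with the line as block 1 (prior 3.23). Same-numbered libraries come from the same clone, and their deviations from group means correlated with r = 0.595 across genes. "Fell" and "rose" mean an adjusted p under 0.05 across lines, unless a sentence names the paired fit. Relative depth was read from ratios of values below 0.1 FPKM: 42.1% to 45.5% were within 0.01 (log2) of a ratio of small integers, and 9.57% to 12.3% of a grid shifted off them. Too few came out whole to rebuild counts. The procedure was tested on simulated data.

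The members, 17 gene lists and the rule for named genes (preset members, the 5 extremes and 5 most abundant, and up to 3 genes per list by adjusted p) were chosen with earlier results of these data known. Genes named beyond this rule, in short counts or in the group whose lines differ in direction, were chosen after their values were seen. Alternatives were other pseudocounts, filters, scalings and fits, and leaving out lines or libraries. The 200 FPKM comparison, the interaction with the line as block and the scaling checks of counts by library order were added after seeing the data. A few genes of the group and of the lists, and 1 list, are not reported here by name; they stay in the counts and medians of the groups.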

Additional observations from a re-analysis of the deposited data

How the results depend on the processing

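The count of 31 ribosomal genes that fell across lines was 0 without the filter on low values, 15 under quantile normalization and 20 without the intensity trend. It was 0 with no replicate block (the line left out of the model), a fit in which 2.19% of all genes fell. When a line was left out the count was 2 to 31. Rises, 0 as reported, were 3 under scaling to the same FPKM total (TPM), 1 under median-ratio scaling and 3 under quantile normalization. In the clones alone, 0 genes fell without and 31 with the clone as replicate block. The clones' median excess over wild type under control siRNA was 0.116 under TPM and 0.0817 under quantile normalization, that of clone 1 was 0.171 and 0.0970, and that of clone 2 was 0.0626 and 0.0581. Genes with all 4 clone libraries above both wild-type libraries numbered 18 and 17 under the same scalings. Under quantile normalization the within-line medians were -0.0598 in clone 1 and -0.0713 in clone 2, and the median interaction turned to 0.0056. With the line as replicate block the interaction called 0 ribosomal genes. Without the 10 most abundant genes in the total, control and knockdown shares were 14.6% and 14.2% for wild type, 16.6% and 15.6% for clone 1, and 15.8% and 14.8% for clone 2. Among genes that did not pass, RPS26 turned to 0.0178 under TPM, 0.0184 under median-ratio scaling and 0.0170 under quantile normalization, and ran from -0.0881 to 0.0433 when a line was left out, RPS14 from -0.0129 to 0.0320. Against wild type under control siRNA, RPL9 turned to -0.0924 under TPM, -0.0180 under median-ratio scaling and -0.192 under quantile normalization, and RPS2 to -0.0317 under TPM and -0.150 under quantile normalization. Without either clone's control library, RPL9 ran from -0.0056 to 0.0485 and RPS2 from -0.0173 to 0.182. The cause of these shifts was not tested. Of the other alternative values, 181 were counts equal or close to those reported, or medians and shares that moved less than the spread. Counts of 0 against 0 are among them. For named genes, 651 alternative values kept their direction and side of the threshold, 202 no longer passed, 10 newly passed and 13 changed direction. Depth is unknown in absolute terms, which limits RPL21 and RPL3L most.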
